A study of Homo sapiens with 6 samples.

Results

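Translation initiation and elongation factors are the proteins that place ribosomes on messenger RNAs and drive them along the coding sequence. Their genes were examined in the human cell line SKOV3, which is established from an ovarian cancer, with an shRNA against CPT1A and without it. CPT1A sits in the outer mitochondrial membrane and controls the entry of long-chain fatty acids for oxidation. Members were the genes of the deposited table whose symbol starts with EIF or EEF followed by a digit. There were 177 such names among the 57905 genes of the table, from which 4 eIF2 kinase genes (EIF2AK), 5 hyphenated names and 108 pseudogene names were left out. This gave 60 members, all typed as protein coding in the GENCODE annotation. They include EIF4EBP1, EIF4EBP2 and EIF4EBP3, which encode the eIF4E-binding proteins (4E-BPs) and whose names end in the way pseudogene names do. Leaving these 3 out as well would give 57 members. Of the 60 members, 57 reached 1 FPKM (reads per kilobase of exon, scaled to the depth of the library) in at least 3 libraries and were tested. EIF4E1B and EIF1AY were listed at 0 in all 6 libraries, and EIF4EBP3 reached at most 0.53 FPKM.

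RNA sequencing covered 3 libraries of SKOV3 cells with the genotype CPT1Ash, whose deposited columns carry the tag sh2, and 3 libraries of wild type SKOV3 cells in normal culture. The labels name no control hairpin, so that an effect of the target and an effect of carrying a hairpin cannot be told apart. The labels speak of biological replicates without saying whether each came from its own knockdown, so p-values measure the spread between these libraries, which may be technical.

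Initiation starts when eIF2 brings the initiator tRNA to the small ribosomal subunit, with eIF1, eIF1A, eIF5 and the large scaffold eIF3. The cap-binding complex of eIF4E, the scaffold eIF4G and the helicase eIF4A recruits the messenger RNA, and 4E-BPs compete with eIF4G for eIF4E unless the kinase mTOR has phosphorylated them. In elongation, eEF1A delivers each aminoacyl-tRNA and eEF2 moves the ribosome by a codon, while the kinase eEF2K phosphorylates eEF2 and so slows elongation. Cancer cells commonly depend on high activity of these factors, which is set by phosphorylation as well as by amount. RNA levels show only the transcript side.

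Total counts per library were 15740143 to 22271565. CPT1A RNA had 2.16, 2.00 and 1.96 FPKM in the CPT1A shRNA libraries and 6.70, 8.06 and 8.0 FPKM in control libraries. This was a 3.91-fold decrease (log2 change -1.97 ± 0.09 SE, edgeR adjusted p = 3.3e-06), and the exact two-sided permutation test on FPKM gave p = 0.1, the smallest value that 3 against 3 libraries allow. On the first principal component the CPT1A shRNA libraries lay at 26.5 to 32.9, and control replicate 2, at -17.7, stood apart from the other control libraries at -36 and -34.6. Of 11 epithelial and ovarian carcinoma markers, 9 reached 1 FPKM in every library, whereas MUC16 was at most 0.03 FPKM and WT1 was not at 1 FPKM in all of them. Their summed level was 1108 to 1275 FPKM in CPT1A shRNA libraries and 1626 to 1991 FPKM in control libraries. KRT19, KRT8, KRT7, MUC1 and PAX8 were called lower (edgeR adjusted p under 0.05). KRT18, EPCAM, CDH1 and ERBB2 were not called, and MUC16 and WT1 were not tested. KRT19 averaged 250 FPKM in CPT1A shRNA cells and 603 FPKM in control cells, whereas ERBB2 averaged 217 and 181 FPKM. The 8 markers of fibroblasts, endothelium and immune cells found in the table summed to 0.37 to 0.69 FPKM in CPT1A shRNA libraries and 1.27 to 1.79 FPKM in control libraries, with CD3E at 0 in all 6. What part these marker differences have in the results was not tested. In bulk RNA, fewer cells of a kind and less RNA per cell cannot be told apart.

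A small number of translation factor genes moved clearly, and most did not pass the test. EEF2 was 3.15-fold lower with CPT1A shRNA, while its inhibitory kinase EEF2K was 1.88-fold higher and the initiation repressor EIF4EBP2 was 2.52-fold higher. EIF5B, which joins the ribosomal subunits, was 2.06-fold lower. Of the 57 tested members, 6 rose (10.5%) and 8 fell (14.0%) at an edgeR adjusted p under 0.05, and 43 were not called. Over all 12784 tested genes 13.8% were called higher and 13.7% lower, 27.4% in all, so that the members were called about as often as other genes. The groups did not overlap in FPKM for 23 of the 57 members, against 42.6% of all tested genes. The median log2 change of the tested members was -0.05, and that of all tested genes was -0.01. Without the 4E-BP genes there were 5 higher and 8 lower among 55 tested members.

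These counts depended on single libraries. Without control replicate 1 there were 3 higher and 3 lower members, without CPT1A shRNA replicate 2 there were 3 and 4, and without CPT1A shRNA replicate 3 there were 3 and 6. Without control replicate 2, the library that stood apart, 10 members were higher and 15 lower. All 14 original calls were among those 25. The counts over all 12784 tested genes moved the same way. With all 6 libraries 1762 genes were higher and 1747 lower. Without control replicate 1 these were 968 and 914, and without control replicate 2 they were 2539 and 2511. Without CPT1A shRNA replicate 2 they were 1077 and 983, and without replicate 3 they were 1337 and 1297. Counts by role with a library left out, given below, stand beside these shifted counts. The calls of EEF2, EIF4EBP2, EEF2K, EIF5B, EEF1E1 and EIF4G1 held in each of the 17 alternative analyses run.

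**Figure D1:**
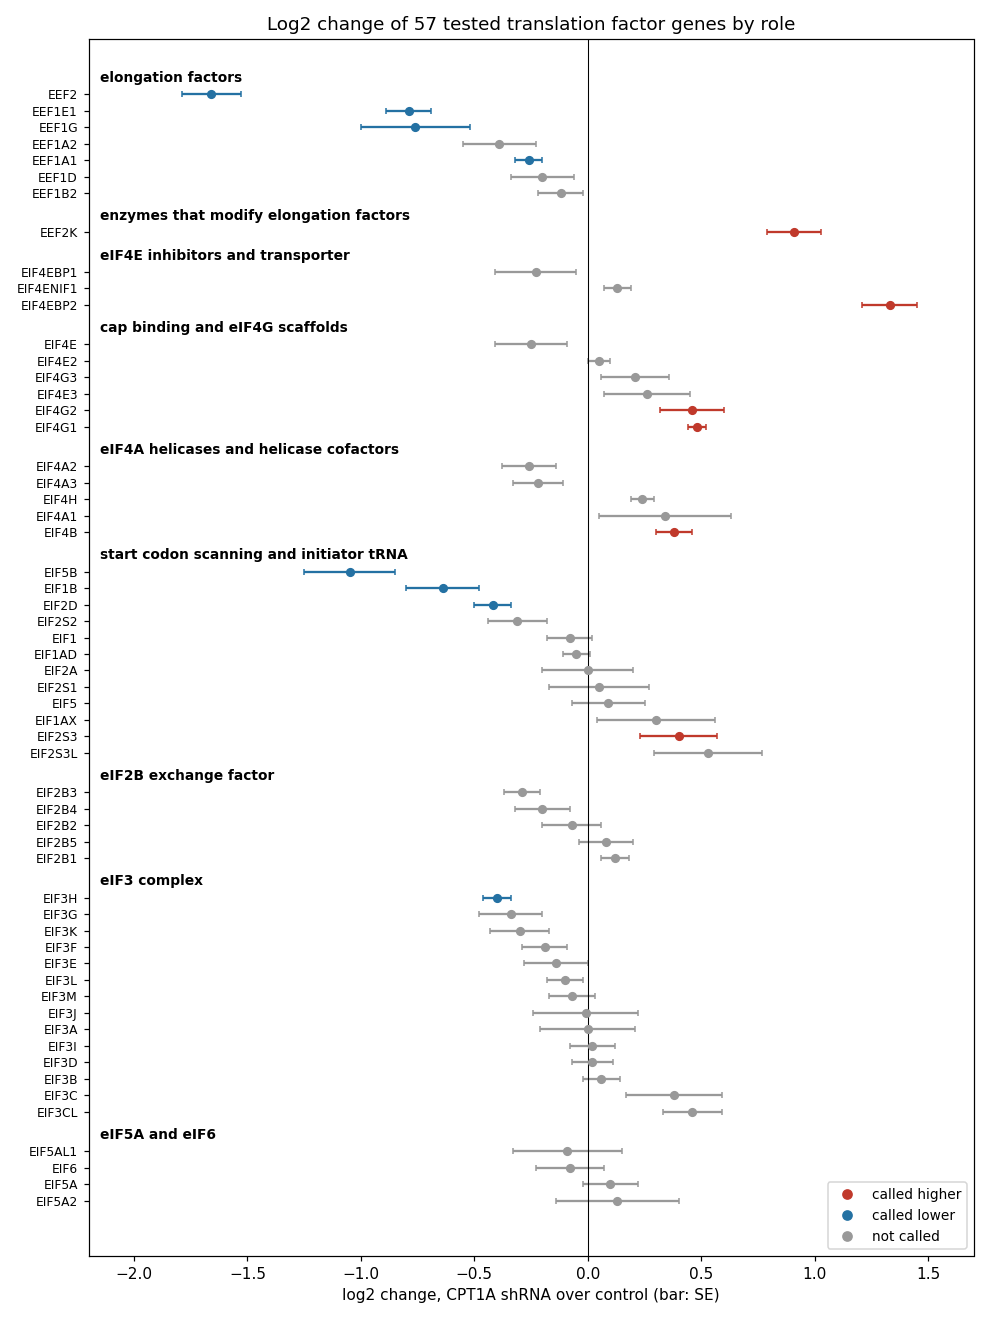
Log2 change (CPT1A shRNA over control, edgeR) of each of the 57 tested translation factor genes on the x axis, grouped by role down the page, with bars for the SE and colour for the call. EEF2 lies farthest to the left at -1.66 and EIF4EBP2 farthest to the right at 1.33, while the eIF2B genes and the genes of eIF5A and eIF6 have no called member.

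EEF2, the translocase that moves the ribosome along the messenger RNA, had 223, 196 and 179 FPKM in the CPT1A shRNA libraries and 578, 551 and 660 FPKM in the control libraries. The highest CPT1A shRNA library was far below the lowest control library, and the groups averaged 199 ± 22.1 and 597 ± 56.8 FPKM in CPT1A shRNA and control cells (SD, n = 3 each). Its log2 change was -1.66 ± 0.13 (SE, edgeR adjusted p = 3.1e-06), and it ranged from -1.74 to -1.35 over the alternatives. In the coordinates of the authors' table, EEF2 (ENSG00000167658) is a minus-strand gene at 3976054 to 3985467 of chromosome 19. It was the second most abundant member in control cells and the third in CPT1A shRNA cells, where EIF4H ranked above it. Its share of all counts was 0.0897%, 0.0791% and 0.0720% in CPT1A shRNA libraries, against 0.233%, 0.222% and 0.266% in control libraries. Among the 445 genes with at least 100 FPKM on average in control cells, EEF2 had the third lowest log2 change, after MMP7 and IRAK1, a rank looked up after its values were seen. Among all 1747 genes called lower it ranked 78.

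EEF2K, the calcium- and calmodulin-dependent kinase that inactivates eEF2 by phosphorylation, moved the opposite way. It had 15.7, 13.9 and 14.3 FPKM in the CPT1A shRNA libraries and 6.43, 8.63 and 7.20 FPKM in the control libraries. Every CPT1A shRNA library was above every control library, and control replicate 2 was the highest of the control libraries. The log2 change was 0.91 ± 0.12 (SE, edgeR adjusted p = 0.000331), and it was 1.01 without control replicate 2. Within each library the ratio of EEF2 to EEF2K in FPKM was therefore 14.2, 14.1 and 12.5 in CPT1A shRNA cells, against 89.9, 63.9 and 91.7 in control cells. EEF2K (ENSG00000103319) is on the plus strand at 22217603 to 22298554 of chromosome 16. An antisense gene, RP11-141O15.1, overlaps 0.650% of that span and had a log2 change of -0.84 ± 0.22 (edgeR adjusted p = 0.0462), the opposite direction.

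The start of the transcript is shown for the members that moved most and for the called members with a pyrimidine run there, because messenger RNAs of ribosomal proteins and many translation factors begin with a C and a run of pyrimidines (the 5′ terminal oligopyrimidine, or TOP, motif), through which mTORC1 and LARP1 control their translation. The start sites and sequences come from RefSeq on GRCh38.p14, a build that differs from the coordinates of the authors' table, and 49 of the 60 members matched by symbol. Each sequence gives 8 bases before the annotated start and 22 from it, on the strand of the gene. A C followed by at least 4 bases that are each C or T was looked for at the start itself, on the strand of the gene alone, and capitals mark the whole run where one was found.
EEF2, chr19:3985442-3985471, minus strand: tcagcgttCTCTTCCgccgtcgtcgccgcc
EEF1A1, chr6:73521011-73521040, minus strand: tgaacgttCTTTTTCgcaacgggtttgccg
EIF2D, chr1:206612444-206612473, minus strand: agccgggcCCTTTTCgcggccgggccccag
EIF2S3, chrX:24054948-24054977, plus strand: tttccttcCTCTTTTggcaacatggcgggc
EIF4B, chr12:53006448-53006477, plus strand: atccgggtCTTTTgcgttctctttccctct
EEF2K, chr16:22206270-22206299, plus strand: ccgcttctgctcaacctagaccagccccag
EIF4EBP2, chr10:70404137-70404166, plus strand: cttcgcccgcttccggtcgtcgtcgtcgcc
EIF5B, chr2:99337381-99337410, plus strand: gagaactcacaccatatgtgtcctgttcca
EEF2, EEF1A1 and EIF2D, with runs of 7 pyrimidines each, were called lower, whereas EIF2S3, also with a run of 7, and EIF4B, with 5, were called higher. EEF2K, EIF4EBP2 and EIF5B had no such run at the annotated start.

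Such a start was present in 12 of the 49 matched members (24.5%), counting a gene if any of its annotated starts had it. The same count gave 5.14% of 27305 gene symbols with RefSeq promoters and 7.46% of the 8520 tested genes that matched. The other 7 members with such a start, besides the 5 printed above, were EIF3D, EIF3F, EIF3K, EIF3M, EIF4A2, EEF1B2 and EIF2A, and these were not called. The 12 had log2 changes of -1.66 to 0.40 with a median of -0.16. Of them 2 were called higher and 3 lower, against 13.8% higher and 13.7% lower over all tested genes. Of the 8520 tested genes that matched, 1261 were called higher and 1201 lower. Among all 636 tested genes with such a start 90 were higher and 119 lower, and the median log2 change was -0.03. A match describes the letters at an annotated start and does not show that the start is used in SKOV3 cells.

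Of the other 6 elongation factor genes, 3 were called lower, with smaller log2 changes than EEF2. EEF1A1, which encodes the main carrier of aminoacyl-tRNA, was the most abundant member in both groups, at 1202, 1151 and 1137 FPKM in CPT1A shRNA libraries and 1292, 1282 and 1409 FPKM in control libraries. The CPT1A shRNA libraries were all lower, by a small margin. Its log2 change of -0.26 ± 0.06 (SE) just passed (edgeR adjusted p = 0.0492), kept its call in only 3 of 17 alternatives (edgeR, DESeq2 or limma adjusted p 0.00765 to 0.405), and was 0.05, above 0, in limma on quantile-normalized log2(FPKM + 1). It lost its call without control replicate 1 (edgeR adjusted p = 0.12) or 3 (0.112), and without CPT1A shRNA replicate 1 (0.0992), 2 (0.197) or 3 (0.151). The ratio of EEF1A1 to EEF2 in FPKM was 5.40, 5.87 and 6.36 in CPT1A shRNA libraries, against 2.23, 2.33 and 2.13 in control libraries. This ratio compares levels per length within a library.

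EEF1E1, which encodes an accessory protein of the multi-tRNA-synthetase complex (also called p18 or AIMP3), had 7.20, 6.03 and 6.96 FPKM in CPT1A shRNA libraries and 11.8, 11.2 and 10.3 FPKM in control libraries. The groups were well separated, with a log2 change of -0.79 ± 0.10 (SE, edgeR adjusted p = 0.0022). EEF1G, a structural subunit of the factor that recharges eEF1A with GTP, had 2.10, 1.35 and 1.91 FPKM in CPT1A shRNA libraries and 3.44, 2.71 and 2.53 FPKM in control libraries. Although the groups did not overlap, the log2 change of -0.76 ± 0.24 (SE, edgeR adjusted p = 0.0208) did not pass without control replicate 1 (edgeR adjusted p = 0.119) or CPT1A shRNA replicate 2 (0.112), within a range of 0.00765 to 0.119 over 16 alternatives. The level of EEF1G is uncertain, because a gene model named MIR3654 on the same strand, from 62327075 to 62359003 on chromosome 11, covers 99.99% of its span and the sources used here do not give how reads falling in both were counted.

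The exchange subunits EEF1B2 and EEF1D and the tissue-restricted isoform EEF1A2 were not called, with log2 changes of -0.12 ± 0.10, -0.20 ± 0.14 and -0.39 ± 0.16 (SE; edgeR adjusted p = 0.451, 0.231 and 0.0716). In all, 4 of the 7 elongation factor genes fell at an edgeR adjusted p under 0.05 and none rose, against 13.7% called lower and 13.8% called higher over all tested genes. The 4 include EEF1A1, which was called in 3 of 17 alternatives, and EEF1G, whose level is uncertain and which was called in 14 of 16. They also include EEF1E1, an elongation factor by name whose protein belongs to the multi-tRNA-synthetase complex. The median log2 change of the 7 was -0.39. All 7 values were below 0, except that EEF1A1 and EEF1B2 were above 0 on quantile-normalized values. Without control replicate 1 or without CPT1A shRNA replicate 2, 2 of the 7 were called lower, and without control replicate 2 there were 6.

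**Figure D2:**
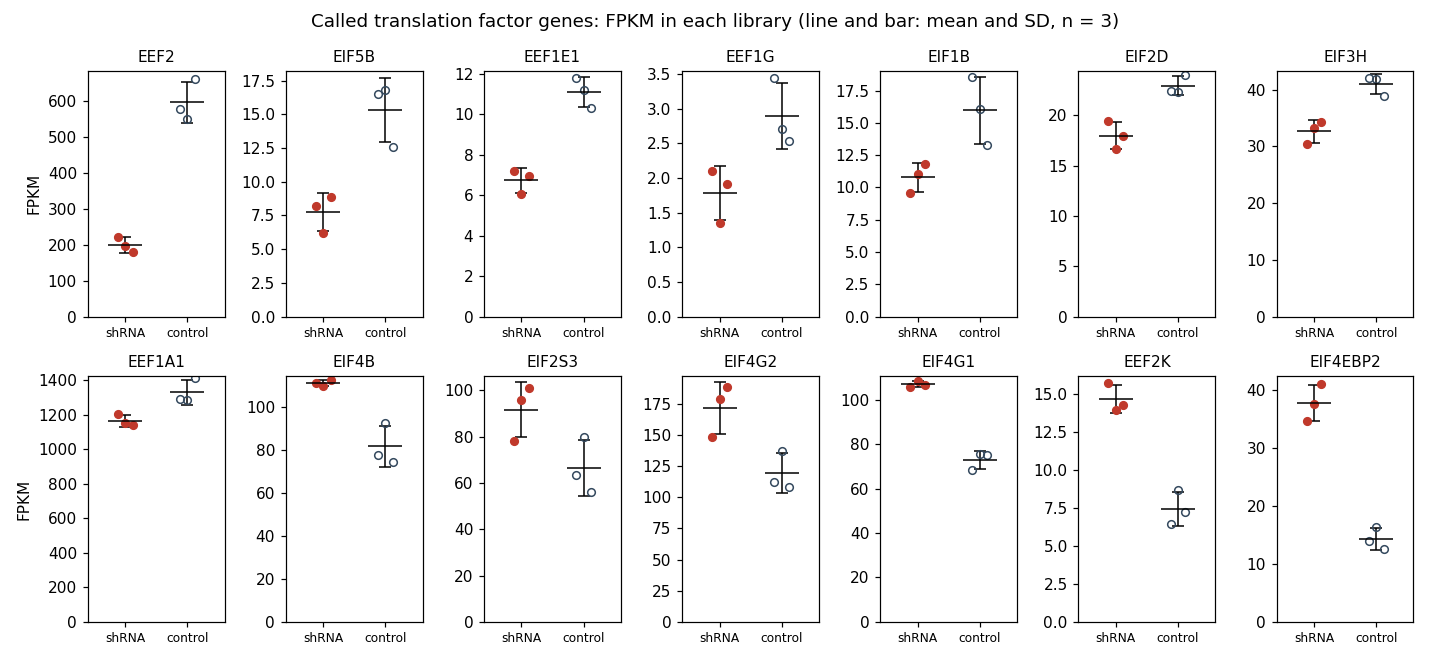
FPKM in each library (y axis, starting at 0) of the 14 called translation factor genes, CPT1A shRNA libraries as filled points and control libraries as open points, with the mean and SD of 3 libraries as line and bar. The groups are separated in every panel except that of EIF2S3, where the lowest CPT1A shRNA library at 78.1 lies below the highest control library at 79.8.

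EIF4EBP2 had the largest increase among the members. Its protein is a translational repressor that holds eIF4E away from eIF4G until mTORC1 phosphorylates it. It had 34.6, 37.6 and 41.0 FPKM in the CPT1A shRNA libraries and 14.0, 16.4 and 12.6 FPKM in the control libraries. All CPT1A shRNA libraries were far above every control library. The log2 change was 1.33 ± 0.12 (SE, edgeR adjusted p = 1.8e-05) and lay between 1.26 and 1.41 in all 17 alternatives. EIF4EBP2 (ENSG00000148730) lies on the plus strand of chromosome 10 from 72164135 to 72188374, and it ranked 130 among the 1762 genes called higher.

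EIF4EBP1, the more abundant 4E-BP gene, was not called. It had 107, 107 and 106 FPKM in CPT1A shRNA libraries and 126, 94.1 and 137 FPKM in control libraries. The control libraries lay on both sides of the CPT1A shRNA libraries, and the log2 change was -0.23 ± 0.18 (SE, edgeR adjusted p = 0.248). Without control replicate 2, its lowest control library, it was -0.39 and called lower (edgeR adjusted p = 0.00742, in a range of 0.00742 to 0.782 over the alternatives). EIF4EBP2 made up 24.5%, 25.9% and 27.8% of the summed 4E-BP FPKM in CPT1A shRNA libraries, against 10%, 14.8% and 8.38% in control libraries. The summed 4E-BP level itself was 145 ± 2.95 FPKM in CPT1A shRNA cells and 134 ± 20.3 FPKM in control cells (SD, n = 3 each), with overlapping libraries. EIF4ENIF1, which encodes the protein that shuttles eIF4E into the nucleus, had a log2 change of 0.13 ± 0.06 (SE, edgeR adjusted p = 0.46).

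**Figure D3:**
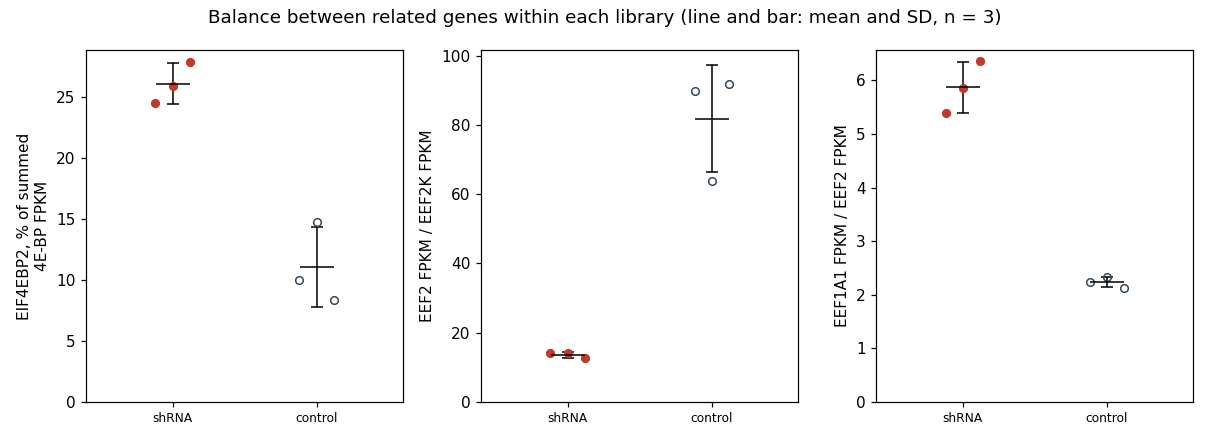
Ratios within each library, from FPKM: the percentage of EIF4EBP2 in the summed 4E-BP level (left), EEF2 over EEF2K (middle) and EEF1A1 over EEF2 (right), each axis starting at 0, with points for libraries and line and bar for the mean and SD of 3. The EEF2 to EEF2K ratio averaged 13.6 ± 0.932 in CPT1A shRNA cells and 81.9 ± 15.6 in control cells, and the groups are separated in all 3 panels.

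The scaffold genes EIF4G1 and EIF4G2 rose, while EIF4G3 and the cap-binding genes were not called. EIF4G1, the scaffold that bridges eIF4E, eIF4A and eIF3, had 106, 109 and 107 FPKM in CPT1A shRNA libraries and 68.2, 75.7 and 75.1 FPKM in control libraries. The libraries of each group were close together and far from those of the other, with a log2 change of 0.48 ± 0.04 (SE, edgeR adjusted p = 0.00242). EIF4G1 lies within the span that the authors' table gives to EIF2B5 on the same strand, and EIF2B5 itself was not called (log2 change 0.08 ± 0.12, edgeR adjusted p = 0.652).

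EIF4G2, also called DAP5, a relative of eIF4G1 that lacks the eIF4E-binding site and serves cap-independent initiation, had 149, 179 and 188 FPKM in CPT1A shRNA libraries and 113, 138 and 108 FPKM in control libraries. The lowest CPT1A shRNA library was close above the highest control library, and the log2 change was 0.46 ± 0.14 (SE, edgeR adjusted p = 0.0117). It was no longer called once control replicate 1 was left out (edgeR adjusted p = 0.0681), or CPT1A shRNA replicate 2 (0.0576) or CPT1A shRNA replicate 3 (0.0571), in a range of 0.000734 to 0.0681 over the alternatives. EIF4E, which encodes the cap-binding protein, had 1.45, 1.5 and 1.48 FPKM in CPT1A shRNA libraries and 1.68, 2.02 and 1.32 FPKM in control libraries. The groups overlapped (log2 change -0.25 ± 0.16 SE, edgeR adjusted p = 0.279). The remaining genes of this role, EIF4E2, EIF4E3 and EIF4G3, had log2 changes of 0.05, 0.26 and 0.21 and were not called. Of the 6 tested cap-binding and scaffold genes, 2 thus rose and none fell, against 13.8% called higher and 13.7% called lower over all tested genes, with 1 rising without control replicate 1 or without CPT1A shRNA replicate 2 or 3, and 3 without control replicate 2.

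Among the helicases and their cofactors, only EIF4B passed the test. It encodes the protein that stimulates eIF4A, and it had 111, 110.2 and 113 FPKM in CPT1A shRNA libraries, against 78.0, 92.9 and 74.6 FPKM in control libraries. The 3 CPT1A shRNA libraries were nearly equal and above all control libraries (log2 change 0.38 ± 0.08 SE, edgeR adjusted p = 0.0148). It was not called with control replicate 1 left out (edgeR adjusted p = 0.0794), or CPT1A shRNA replicate 2 (0.0702) or CPT1A shRNA replicate 3 (0.0518), in a range of 0.00134 to 0.0794 over the alternatives. The level of EIF4B may hold antisense reads, since the gene RP11-983P16.4 overlaps 76.6% of its span on the other strand and reads were not stated to be strand-specific. That gene had 112 to 125 counts in CPT1A shRNA libraries and 162 to 221 in control libraries (log2 change -0.54 ± 0.08, edgeR adjusted p = 0.0348). These are few beside the counts of EIF4B itself, 10663 to 13039 in CPT1A shRNA libraries and 8771 to 12710 in control libraries.

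EIF4A2, a helicase paralogue, had 29.6, 34.7 and 32.8 FPKM in CPT1A shRNA libraries and 37.8, 41.5 and 31.7 FPKM in control libraries. Its log2 change of -0.26 ± 0.12 (SE) was not called (edgeR adjusted p = 0.112), and it was called without control replicate 3 (edgeR adjusted p = 0.0397, in a range of 0.0397 to 0.388). EIF4A1, the main eIF4A helicase gene, had only 1.31, 1.25 and 1.77 FPKM in CPT1A shRNA libraries and 0.75, 1.44 and 1.08 FPKM in control libraries (log2 change 0.34 ± 0.29 SE, edgeR adjusted p = 0.317). This level is uncertain, because a model named SNORA67 on the same strand covers 98.1% of its span and a read-through model with SENP3 covers 95.4%. EIF4H, a cofactor related to EIF4B, and EIF4A3, the helicase of the exon junction complex, had log2 changes of 0.24 and -0.22 and were not called. EIF4H was called higher with total counts alone, in all 3 limma analyses, with a minimum of 5 FPKM and without control replicate 2 or 3. EIF4A3 was called lower without control replicate 2.

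In the group that reads the start codon and carries the initiator tRNA, 3 of 12 tested genes fell and 1 rose, against 13.7% called lower and 13.8% called higher over all tested genes. Leaving out control replicate 1 gave 1 lower and 0 higher, control replicate 2 gave 3 lower and 3 higher, and control replicate 3 gave 3 lower and 0 higher. Leaving out CPT1A shRNA replicate 2 or replicate 3 gave 2 lower and 0 higher. EIF5B, the GTPase that joins the large ribosomal subunit at the start codon, had 8.17, 6.21 and 8.90 FPKM in CPT1A shRNA libraries and 16.5, 16.8 and 12.6 FPKM in control libraries. Each CPT1A shRNA library was below each control library, and control replicate 3 was the nearest to them. The log2 change was -1.05 ± 0.20 (SE, edgeR adjusted p = 0.000417), with values of -1.16 to -0.90 over the alternatives. EIF5B (ENSG00000158417) lies on the plus strand of chromosome 2 from 99953816 to 100017789. Its ends overlap TXNDC9 and REV1 on the other strand, which had log2 changes of -0.25 ± 0.16 and -0.08 ± 0.14 and were not called (edgeR adjusted p = 0.262 and 0.707).

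EIF1B, a close relative of the start-codon selection factor EIF1, had 9.57, 11.03 and 11.8 FPKM in CPT1A shRNA libraries and 18.5, 16.1 and 13.3 FPKM in control libraries. The groups did not overlap, with a log2 change of -0.64 ± 0.16 (SE, edgeR adjusted p = 0.0111), which did not pass without control replicate 1 (edgeR adjusted p = 0.0851, in a range of 0.00141 to 0.0851). EIF1 itself stood at 145 ± 3.53 FPKM in CPT1A shRNA cells and 145 ± 12.3 FPKM in control cells (SD, n = 3 each) and was not called (log2 change -0.08, edgeR adjusted p = 0.622). EIF2D, which can deliver tRNA to the start site without eIF2, had 19.4, 16.6 and 18.0 FPKM in CPT1A shRNA libraries and 22.5, 22.3 and 24.1 FPKM in control libraries. It was lower in every CPT1A shRNA library by a small step (log2 change -0.42 ± 0.08 SE, edgeR adjusted p = 0.0209). It was not called with control replicate 1 left out (edgeR adjusted p = 0.0792), nor without control replicate 3 (0.0516) or CPT1A shRNA replicate 2 (0.143) or 3 (0.0631), in a range of 0.00861 to 0.143. RASSF5, on the opposite strand, overlaps 43.6% of the EIF2D span and rose (log2 change 1.24 ± 0.25 SE, edgeR adjusted p = 0.00157), against the direction of EIF2D.

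Of the 3 eIF2 subunit genes, EIF2S3 passed the test. EIF2S3, the subunit that binds GTP and the initiator tRNA, had 78.1, 95.8 and 101 FPKM in CPT1A shRNA libraries and 63.5, 79.8 and 56.3 FPKM in control libraries. The groups overlapped, since CPT1A shRNA replicate 1 was below control replicate 2. The log2 change of 0.40 ± 0.17 (SE, edgeR adjusted p = 0.0447) was lost with upper-quartile scaling (edgeR adjusted p = 0.0551), without control replicate 1 (0.16) or 3 (0.103), and without CPT1A shRNA replicate 2 (0.146) or 3 (0.16), in a range of 0.00538 to 0.16.

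EIF2S1, the subunit whose phosphorylation by the eIF2 kinases slows initiation, had 20.02, 24.8 and 30.02 FPKM in CPT1A shRNA libraries and 24.3, 26.2 and 18.4 FPKM in control libraries (log2 change 0.05 ± 0.22 SE, edgeR adjusted p = 0.84). EIF2S2, the remaining subunit, had 48.3, 55.8 and 60.8 FPKM in CPT1A shRNA libraries and 69.8, 67.1 and 57.1 FPKM in control libraries. Its groups overlapped and it was not called (log2 change -0.31 ± 0.13 SE, edgeR adjusted p = 0.0789), although it was without control replicate 3 (edgeR adjusted p = 0.0402, in a range of 0.0402 to 0.308). The other genes of this role, EIF1AD, EIF1AX, EIF2A, EIF2S3L and EIF5, had log2 changes of -0.05 to 0.53 and were not called, although EIF1AX and EIF2S3L were called higher without control replicate 2. EIF2S3L is a near-identical copy of EIF2S3, and reads of the pair may have been divided between them. The 5 subunits of eIF2B, the factor that recharges eIF2 with GTP, had log2 changes of -0.29 to 0.12 with a median of -0.07, and none was called.

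The eIF3 complex, which holds the small subunit and links it to eIF4G, had a single called gene. Of its 14 tested genes 1 fell and none rose, against 13.7% called lower and 13.8% called higher over all tested genes. The median log2 change was -0.04 with a range of -0.40 to 0.46. That median turned to 0.03 with total counts alone and to 0.03 to 0.05 in limma, where 1 eIF3 gene was also called higher. The summed eIF3 level was 654 ± 7.40 FPKM in CPT1A shRNA cells and 662 ± 25.7 FPKM in control cells (SD, n = 3 each). EIF3H, the called gene, had 30.4, 33.2 and 34.3 FPKM in CPT1A shRNA libraries and 42.1, 41.8 and 38.9 FPKM in control libraries. The groups were separate, with a log2 change of -0.40 ± 0.06 (SE, edgeR adjusted p = 0.0116), lost without control replicate 1 (edgeR adjusted p = 0.0695), CPT1A shRNA replicate 1 (0.056) or CPT1A shRNA replicate 2 (0.0634), in a range of 0.00472 to 0.0695. UTP23, which overlaps 0.339% of its span on the other strand, was not called (log2 change -0.33 ± 0.36, edgeR adjusted p = 0.36). The near-identical copies EIF3C and EIF3CL had log2 changes of 0.38 ± 0.21 and 0.46 ± 0.13 (SE; edgeR adjusted p = 0.111 and 0.0753), and the division of reads between them is uncertain. Without control replicate 2 the number of eIF3 genes called lower was 4, without control replicate 1 or without CPT1A shRNA replicate 1 or 2 it was 0, and without control replicate 3 there was also 1 called higher.

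The genes of eIF5A, which helps the ribosome through difficult peptide bonds, and of eIF6, which keeps free large subunits apart from small ones, were not called. EIF5A had 181, 196 and 211 FPKM in CPT1A shRNA libraries and 180.3, 156 and 186 FPKM in control libraries, with overlapping groups (log2 change 0.10 ± 0.12 SE, edgeR adjusted p = 0.541). It was called in limma on quantile-normalized values (log2 change 0.33, limma adjusted p = 0.0092, in a range of 0.0092 to 0.959). EIF6 had 158, 170.1 and 172 FPKM in CPT1A shRNA libraries and 178, 139 and 184 FPKM in control libraries (log2 change -0.08 ± 0.15 SE, edgeR adjusted p = 0.673). The paralogue EIF5A2 and the near-identical copy EIF5AL1 had log2 changes of 0.13 and -0.09.

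**Figure D4:**
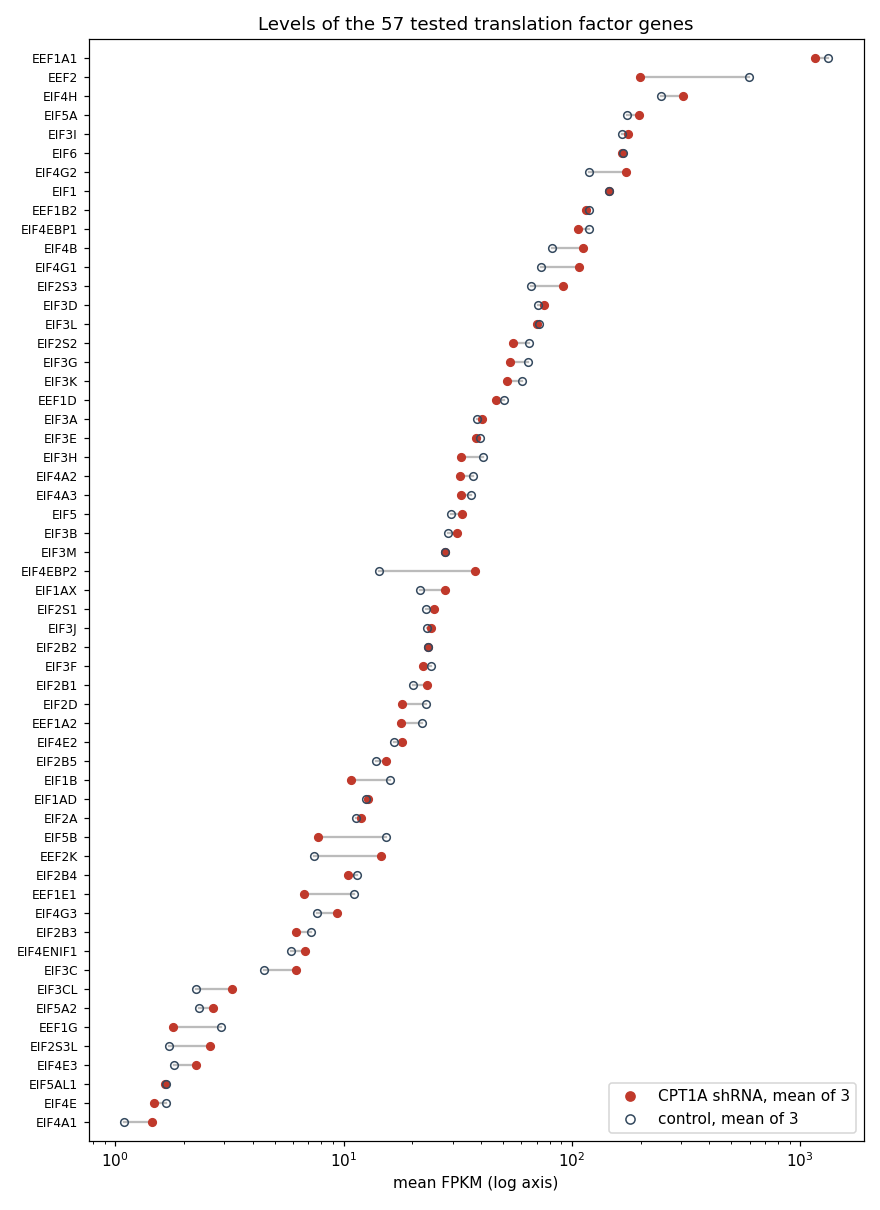
Mean FPKM of the 57 tested translation factor genes on a log axis, CPT1A shRNA cells as filled points and control cells as open points, ordered by the mean over the 6 libraries. Levels run from EIF4A1, at 1.44 FPKM in CPT1A shRNA and 1.09 FPKM in control cells, to EEF1A1, at 1164 FPKM in CPT1A shRNA and 1328 FPKM in control cells, and the longest connecting lines belong to EEF2 and EIF4EBP2.

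The members spanned a wide range of levels. Averaged over the 6 libraries, 10 members had at least 100 FPKM, 34 had 10 to under 100 FPKM, 13 had 1 to under 10 FPKM and 3 had less. The members together took 1.912% to 1.951% of all counts in CPT1A shRNA libraries and 2.025% to 2.118% in control libraries, so that every CPT1A shRNA library was lower. Without EEF1A1, these shares were 1.198% to 1.275% in CPT1A shRNA libraries and 1.26% to 1.281% in control libraries, and the groups overlapped. EEF2 alone took 0.0720% to 0.0897% of all counts in CPT1A shRNA libraries and 0.222% to 0.266% in control libraries. By library, the summed share was 1.912%, 1.925% and 1.951% with CPT1A shRNA and 2.027%, 2.025% and 2.118% in control. With the EEF2 share of each library taken off its summed share, the groups overlapped as well. The lower summed share therefore does not describe the members as a set.

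Of 69 further symbols of the translation pathway, written from general knowledge, 61 were tested, of which 11 rose (18.0%, against 13.8% of all tested genes) and 2 fell (3.28%, against 13.7%). In the list of mTORC1 and MNK control, 3 of 10 tested genes rose and none fell. MTOR, the kinase of mTORC1 that phosphorylates 4E-BPs, had 11.1, 12.1 and 10.5 FPKM in CPT1A shRNA libraries and 5.19, 6.43 and 5.81 FPKM in control libraries, with a log2 change of 0.88 ± 0.09 (SE, edgeR adjusted p = 0.000228). RPTOR, the mTORC1 scaffold that recruits substrates, had 13.3, 12.8 and 12.3 FPKM in CPT1A shRNA libraries and 6.84, 7.80 and 8.14 FPKM in control libraries (log2 change 0.68 ± 0.08 SE, edgeR adjusted p = 0.000933). The groups of both genes were well apart. LARP1, the protein that binds the cap and TOP motif and represses such messages when mTORC1 is off, had 40.2, 39.4 and 36.9 FPKM in CPT1A shRNA libraries and 22.1, 27.8 and 24.4 FPKM in control libraries (log2 change 0.58 ± 0.09 SE, edgeR adjusted p = 0.00168). These 3 calls held in all 17 alternatives, while without control replicate 2 a further 2 genes of the list were called lower.

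The list of eIF2 kinases and phosphatase subunits had 3 of 8 tested genes higher and none lower. Over all tested genes, 13.8% were called higher and 13.7% lower. EIF2AK4, which encodes GCN2, the eIF2 kinase that senses uncharged tRNA, had 21.4, 22.9 and 23.2 FPKM in CPT1A shRNA libraries and 11.8, 15.7 and 12.5 FPKM in control libraries (log2 change 0.69 ± 0.11 SE, edgeR adjusted p = 0.00105). GCN1L1, which encodes the activator of GCN2, had 37.3, 37.0 and 33.2 FPKM in CPT1A shRNA libraries and 20.5, 24.1 and 24.7 FPKM in control libraries (log2 change 0.56 ± 0.09 SE, edgeR adjusted p = 0.00226). For both genes the CPT1A shRNA libraries were all above the control libraries, and both calls held in all 17 alternatives. PPP1R15B, the phosphatase subunit that reverses eIF2 phosphorylation, had a log2 change of 0.54 ± 0.23 (SE, edgeR adjusted p = 0.0287) and was called in 13 of 17 alternatives, but not without control replicate 1 or 3 or CPT1A shRNA replicate 2 or 3 (largest edgeR adjusted p = 0.114).

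In the list of poly(A)-binding proteins, which join the tail of the message to eIF4G, and of their partners, 2 of 5 tested genes rose, both of them poly(A)-binding protein genes. PABPC1L and the partners PAIP1 and PAIP2 were not called. Over all tested genes, 13.8% were called higher. PABPC4 had 40.6, 42.2 and 41.7 FPKM in CPT1A shRNA libraries and 26.9, 28.1 and 25.6 FPKM in control libraries (log2 change 0.56 ± 0.03 SE, edgeR adjusted p = 0.00124). PABPC1 had 224, 246 and 302 FPKM in CPT1A shRNA libraries and 177, 197 and 180.1 FPKM in control libraries (log2 change 0.41 ± 0.13 SE, edgeR adjusted p = 0.0208), and it lost its call without control replicate 1 or CPT1A shRNA replicate 2 or 3 (largest edgeR adjusted p = 0.118). Both genes were separated between the groups. NCBP1, of the nuclear cap-binding complex, was the called gene among 9 other initiation helpers, with a log2 change of 0.50 ± 0.18 (SE, edgeR adjusted p = 0.0206). It lost its call without control replicate 1 or CPT1A shRNA replicate 2 or 3 (largest edgeR adjusted p = 0.0956).

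EEFSEC, the elongation factor that delivers selenocysteine, fell, at 7.84, 7.31 and 6.77 FPKM in CPT1A shRNA libraries and 12.7, 10.6 and 12.7 FPKM in control libraries (log2 change -0.79 ± 0.12 SE, edgeR adjusted p = 0.00227). The other 4 tested genes of selenocysteine insertion were not called. DPH7, an enzyme of the diphthamide modification that eEF2 carries, had a log2 change of -0.42 ± 0.13 (SE) at the edge of the threshold (edgeR adjusted p = 0.05 after rounding) and was called in 4 of 17 alternatives. The other 6 tested genes of hypusine and diphthamide synthesis, and the 5 of termination and recycling, were not called. Of 12 mitochondrial translation factors 2 rose, the release factor MTRF1L (log2 change 0.58 ± 0.22 SE, edgeR adjusted p = 0.0242) and the recycling factor MRRF (0.43 ± 0.10, edgeR adjusted p = 0.0275). Each was called in 13 of 17 alternatives, and neither was called without control replicate 1 or CPT1A shRNA replicate 2 or 3. The share of these 12 called higher was 16.7%, against 13.8% called higher and 13.7% called lower over all tested genes.

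**Figure D5:**
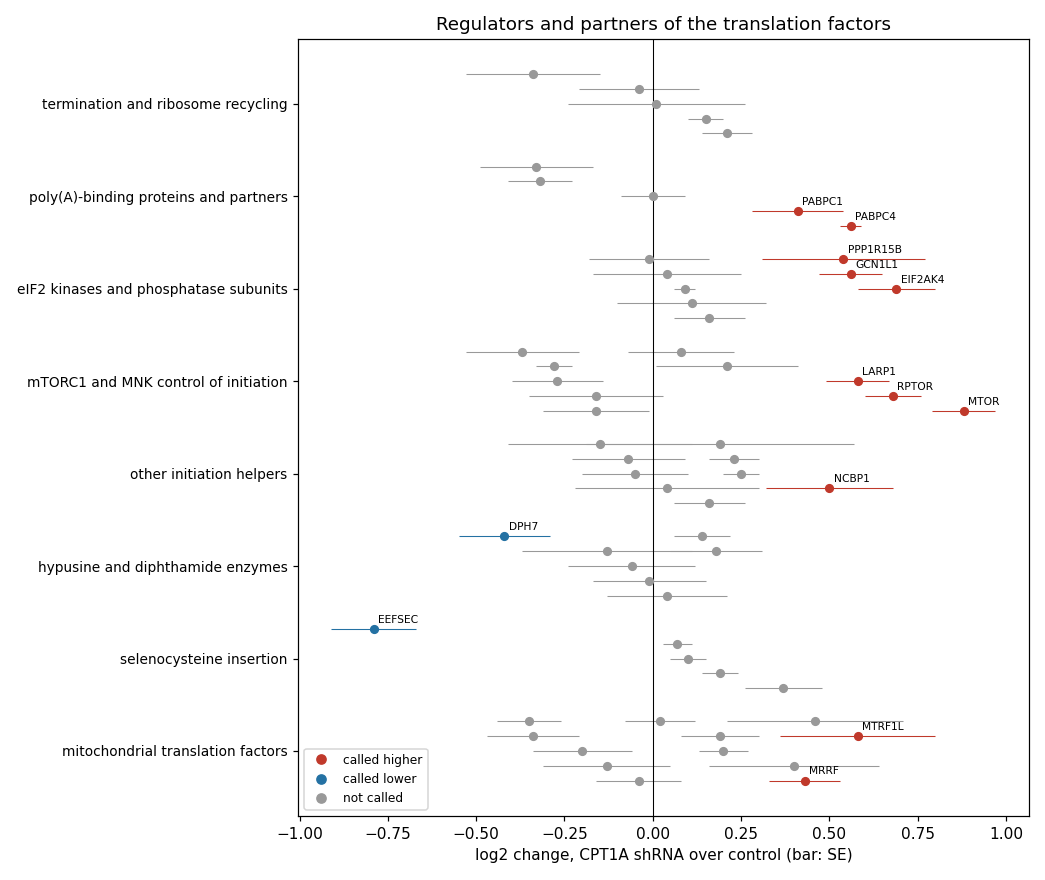
Log2 change (CPT1A shRNA over control, edgeR) of the 61 tested regulators and partners of the translation factors on the x axis, 1 list per band, with bars for the SE and colour for the call. The 11 genes called higher reach 0.88 for MTOR, and the 2 called lower are EEFSEC at -0.79 and DPH7 at -0.42.

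Pseudogenes of the members were followed because their reads can be mistaken for those of the parent gene. Of the 108 pseudogene rows 11 were tested. Of these, 2 rose and none fell, against 13.8% called higher and 13.7% called lower over all tested genes. EIF4BP7 had a log2 change of 0.95 ± 0.29 (SE, edgeR adjusted p = 0.00872) and EIF4HP1 of 1.11 ± 0.14 (SE, edgeR adjusted p = 0.00152). EIF4BP7 shares its direction with EIF4B, and EIF4HP1 with EIF4H, which was not called. EEF1A1P5, with 5482 to 6178 counts in CPT1A shRNA libraries and 5949 to 7256 in control libraries, was not called (log2 change -0.07 ± 0.06, edgeR adjusted p = 0.612). The small nucleolar RNA genes SNORD37 in EEF2, SNORD66 in EIF4G1 and SNORD97 in EIF4G2 had no counts.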

How the data were processed

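RNA from 3 CPT1A shRNA and 3 control libraries was compared. The deposited counts are whole-number reads per gene, and the FPKM values deposited beside them equal counts divided by exonic length and library total, which held for 100% of values in every library to within 0.0051. The authors' exonic lengths, another value of the table, were used as deposited. The submitters' processing notes list HTSeq 0.6.1, HISAT2 2.0.1, cutadapt 1.9.1 and DESeq2, and a mouse build, although the table holds human genes; the build used and the strand setting are not given in the sources used here. Per the labels' protocols, either poly(A) selection or rRNA removal was used.

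Genes reaching 1 FPKM in 3 or more libraries, 12784 in number, were fitted as raw counts with edgeR 4.0.16 in R 4.3.3 (TMM scaling, quasi-likelihood F test, group only). P-values were Benjamini-Hochberg adjusted over all of them, and a gene was called under 0.05. SE refers to the group difference in log2 CPM, computed with a prior count of 2. The script was tested on simulated data. Alternatives used other scalings, DESeq2 1.42.0, limma 3.58.1 on log2 FPKM, other filters, a replicate block and leaving out each library. Values per library are given for every called member, for 14 members picked by role whether called or not, and for some called pathway genes. Up to 3 called genes per pathway list are named, the others of them with the log2 change alone. Genes overlapping called members are given mostly by the log2 change. Members and lists were chosen with earlier results of these data known.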

Additional observations from a re-analysis of the deposited data

How the results depend on the processing

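Of 371 values of named members under the alternatives, 326 kept their direction and side of the threshold, 34 lost the call, 4 gained it and 7 changed sign. On quantile-normalized log2(FPKM + 1) in limma EEF1A1 was at 0.05 and EIF6, never called, at 0.15, and EIF6 rounded to 0.0 with a pseudocount of 1 and to 0.0 with 0.1 in limma. Over the analyses that left out a library, EIF6 ran from -0.21 without control replicate 2 to 0.02 without control replicate 3. EIF2S1, also never called, was at -0.06 without control replicate 3 and ran from -0.11 to 0.19 without CPT1A shRNA replicates 3 and 1. When each library was left out in turn, members called higher numbered 3 to 10 and lower 3 to 15, and all genes called higher 968 to 2539 and lower 914 to 2511. The lowest counts over all genes came without control replicate 1, and the next lowest, 1077 higher and 983 lower, without CPT1A shRNA replicate 2. The median log2 change of members, -0.05, was 0.05 on quantile-normalized values. The log2 ratio of the members' share of counts (CPT1A shRNA over control), -0.09, was -0.03 as a share of FPKM and -0.03 without EEF1A1. With the replicate block, 6 members were higher and 7 lower, and 1667 and 1595 of all genes. Samples with the same number showed no sign of deviating together (correlations -0.069, 0.00749 and -0.251). Samples with different numbers gave correlations of -0.156 to 0.211. With 3 libraries per group, this check cannot show that the samples were unpaired. Higher genes made up 50.2% of all calls, against 61.6% with total counts alone, 60.5% in limma on log2(FPKM + 1) and 60.7% with a pseudocount of 0.1; the cause was not tested. CPT1A kept its call in all 17 alternatives. EEF1A1 also lost its call under other scalings and filters with all 6 libraries kept. Low-count members such as EIF4E, EEF1G and EIF4A1 carry more counting error.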
